A study of Mus musculus with 30 samples.

Results

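The genes described here are 53 mouse genes of the lysosome, taken by their symbols from a deposited table of 46078 genes. They were chosen by what their products are, with earlier results of these data known. They fall into 11 cathepsins and other proteases, 15 glycosidases and sulfatases, 6 lipid hydrolases and 4 cofactors and soluble carriers. The rest are 9 membrane proteins, 5 subunits of the proton pump and 3 transcription factors of the TFEB family. All 53 were found and all 53 passed the filter on low counts, so none is missing from the tests.

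The lysosome is the acidic compartment in which cells take apart what they engulf, what endocytosis brings in and what autophagy delivers. Its proton pump acidifies the lumen, its hydrolases cut proteins, sugars and lipids there, and its membrane proteins shield the compartment and export the products. TFEB, TFE3 and MITF are related transcription factors that bind short palindromic sites in the promoters of many lysosomal genes. Microglia, the macrophages that live in brain and spinal cord, use this machinery to clear myelin debris, which is plentiful in experimental autoimmune encephalomyelitis (EAE), an induced autoimmune attack on the central nervous system.

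RNA was sequenced from 30 libraries of sorted microglia of C57BL/6 mice in 8 groups. The KO mice were Atg7fl/fl Cx3cr1CreERT and the WT mice Atg7wt/wt Cx3cr1CreERT2, both given 4 mg tamoxifen 3 times, 48 h apart, so that the controls carry a Cre and had tamoxifen too. Atg7 encodes an enzyme needed to form autophagosomes, and Cx3cr1 drives the Cre in microglia and other cells of the myeloid lineage. EAE was induced at least 18 days later with rmMOG (residues 1 to 125) and pertussis toxin. A further set of mice is labelled old and Atg7 wild type, with age given only as old against young and with no statement of its Cre, and the treatment text attached to its samples is that of the other mice, tamoxifen included. Naive mice without EAE gave 4 KO, 4 old and 4 WT libraries. Day 21 of EAE gave 4 KO and 3 WT libraries, and day 35 gave 4 KO, 3 old and 4 WT libraries. The sort took live cells by CD11b+, CD45Int and Ly6G- and/or by eYFP+, and females and males were pooled 1:1. Nothing in the labels says that the libraries of a group come from separate mice, so p-values measure the spread between these libraries, which may be technical.

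Library totals ran from 4712803 to 11034565 counts, with a median of 6769302. Counts per gene did not show the deletion: Atg7 lay at 11.4 to 31.8 CPM in naive KO against 26.6 to 40.1 CPM in naive WT (CPM, counts scaled to a common library size; adjusted p = 0.516), at 31.0 to 36.9 CPM in KO against 19.8 to 25.3 CPM in WT at day 21 (adjusted p = 0.303), and at 30.3 to 33.8 CPM in KO against 21.3 to 23.8 CPM in WT at day 35 (adjusted p = 0.338). Counts per exon were not analysed here. All 12 microglia markers were detected in every group, with summed levels of 11400 to 34219.8 CPM per library. Several libraries stood apart from their group. Replicate 1 of day 35 old had 32317 CPM of 14 neutrophil markers, against 2482 and 692 CPM in the other day 35 old libraries, and 2.46% of its counts fell on the 53 lysosomal genes, against 4.54% and 3.70%. The member share was also low in replicate 4 of naive KO, naive old and day 35 KO (3.24%, 3.48% and 3.20%) and in replicates 1 and 2 of day 35 WT (3.06% and 2.91%). Naive WT libraries differed widely in neutrophil markers, from 2021 to 16917 CPM. For replicate 3 of day 35 WT the title names wild type but the knockout status field reads KO, and the title was followed.

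**Figure D1:**
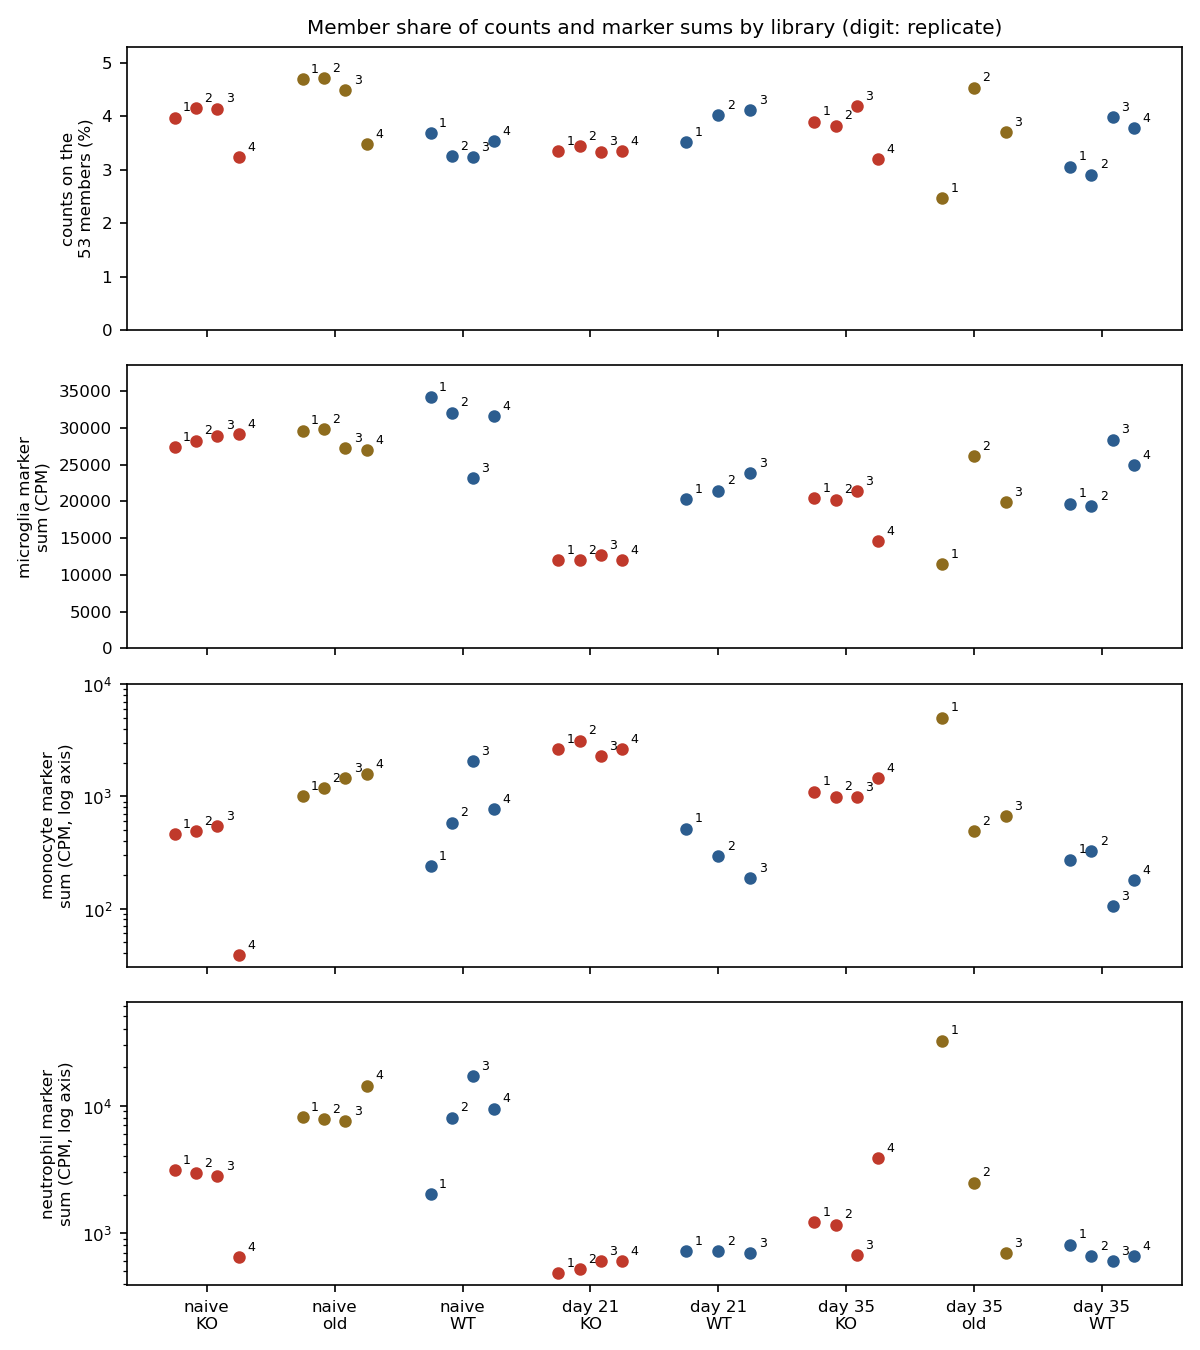
Share of each library's counts on the 53 lysosomal genes (top, percent) and summed levels of 12 microglia, 12 monocyte and 14 neutrophil markers (CPM, the lower 2 on log axes), with 1 point per library and its replicate number beside it. Day 35 old replicate 1 has the lowest member share (2.46%) and the highest neutrophil sum (32317 CPM), and the 4 day 21 KO libraries have monocyte sums of 2281 to 3142 CPM, above the 187 to 516 CPM of day 21 WT.

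Promoters are shown because the sites that TFEB-family factors bind can be read in them. RefSeq promoter windows on GRCm38.p6, from 250 bases before to 50 bases after a transcript start, were matched by symbol for 46 of the 53 members. The core string CACGTG was present in a window of 14 of these 46 genes (30.4%), against 2187 of 27025 genes in the whole table (8.09%). The longer string TCACGTGA, which contains the core, was present in 5 of 46 (10.9%), against 304 of 27025 (1.12%). Both strings are palindromes, so each match counts for both strands. The core was found in 5 of 9 protease genes, 6 of 14 glycosidase and sulfatase genes and 3 of 8 membrane protein genes, and in none of the windows of the lipid hydrolases, the carriers, the pump subunits or the TFEB family itself. Of the 5 genes with the longer string, the 4 with the lowest adjusted p in any pairwise comparison are printed below and the other is Cln3. The 250 bases before the start are given 5′ to 3′ on the gene's own strand, and capitals mark TCACGTGA.
Gla, minus strand, chrX:134601006-134601255: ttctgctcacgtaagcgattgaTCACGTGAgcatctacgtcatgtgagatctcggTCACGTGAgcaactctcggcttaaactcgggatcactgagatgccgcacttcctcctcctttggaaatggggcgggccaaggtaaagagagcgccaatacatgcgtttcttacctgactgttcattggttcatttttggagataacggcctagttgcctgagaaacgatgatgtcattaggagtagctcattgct
Mcoln1, plus strand, chr8:3500269-3500518: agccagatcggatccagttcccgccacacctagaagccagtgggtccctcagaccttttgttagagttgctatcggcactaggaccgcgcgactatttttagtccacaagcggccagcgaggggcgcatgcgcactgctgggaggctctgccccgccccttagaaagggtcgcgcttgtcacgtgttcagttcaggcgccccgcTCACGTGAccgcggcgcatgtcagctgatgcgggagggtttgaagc
Ctsd, minus strand, chr7:142387828-142388077: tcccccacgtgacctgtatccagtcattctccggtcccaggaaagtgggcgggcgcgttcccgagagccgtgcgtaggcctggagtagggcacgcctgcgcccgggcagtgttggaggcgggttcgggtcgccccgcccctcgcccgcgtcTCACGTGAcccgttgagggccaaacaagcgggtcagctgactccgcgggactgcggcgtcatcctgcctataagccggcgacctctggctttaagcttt
Ctsa, plus strand, chr2:164833523-164833772: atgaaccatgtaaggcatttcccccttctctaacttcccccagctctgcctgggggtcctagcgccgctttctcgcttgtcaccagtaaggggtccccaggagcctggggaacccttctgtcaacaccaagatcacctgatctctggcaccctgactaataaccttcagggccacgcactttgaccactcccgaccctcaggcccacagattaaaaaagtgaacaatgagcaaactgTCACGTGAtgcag
Counted from the transcript start, the capitals begin at bases -228 and -195 in Gla, at -46 in Mcoln1, at -99 in Ctsd and at -13 in Ctsa, where another copy at base 5 lies past the printed stretch. A match describes the letters only and says nothing of binding in these cells.

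Levels of different genes were compared per kilobase (kb) of merged annotated exons, which understates genes with long annotated ends. In naive WT microglia Ctss, the cathepsin S that trims antigen-presenting complexes, stood first with 4121 ± 316.8 CPM per kb (SD, n = 4), followed by Ctsd with 2431 ± 118 and Lgmn, an asparagine-specific protease, with 1541 ± 203.9 CPM per kb. The lowest protease was Ctsf with 36.3 ± 3.93 CPM per kb. Among glycosidases and sulfatases Hexa, a subunit of the enzyme that degrades gangliosides, was highest at 303.3 ± 31.7 CPM per kb and Gla, the alpha-galactosidase of globotriaosylceramide, lowest at 3.60 ± 1.39. Among lipid hydrolases Pla2g15, a lysosomal phospholipase, had 145 ± 20.5 CPM per kb and Galc, which degrades the myelin lipid galactosylceramide, 3.35 ± 0.713. Psap, the precursor of the saposin cofactors, had 863 ± 39.5 CPM per kb and Npc2, a soluble cholesterol carrier, 45.8 ± 3.48. Laptm5 led the membrane proteins with 571 ± 75.8 CPM per kb and Mcoln1, the calcium channel of the lysosomal membrane, was last with 6.11 ± 0.483. In the pump Atp6ap1 had 62 ± 2.68 CPM per kb and Atp6v0d2, a subunit isoform of osteoclasts and activated macrophages, 0.310 ± 0.455, the lowest level of all members. Of the regulators Tfe3 had 17.6 ± 1.45 CPM per kb and Mitf 10.4 ± 0.380. Of the 52 neighbouring pairs in this order, 39 overlapped within 1 SD of their means, so only the broad order can be read, and 16 members exceeded 100 CPM per kb while 7 stayed under 10.

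**Figure D2:**
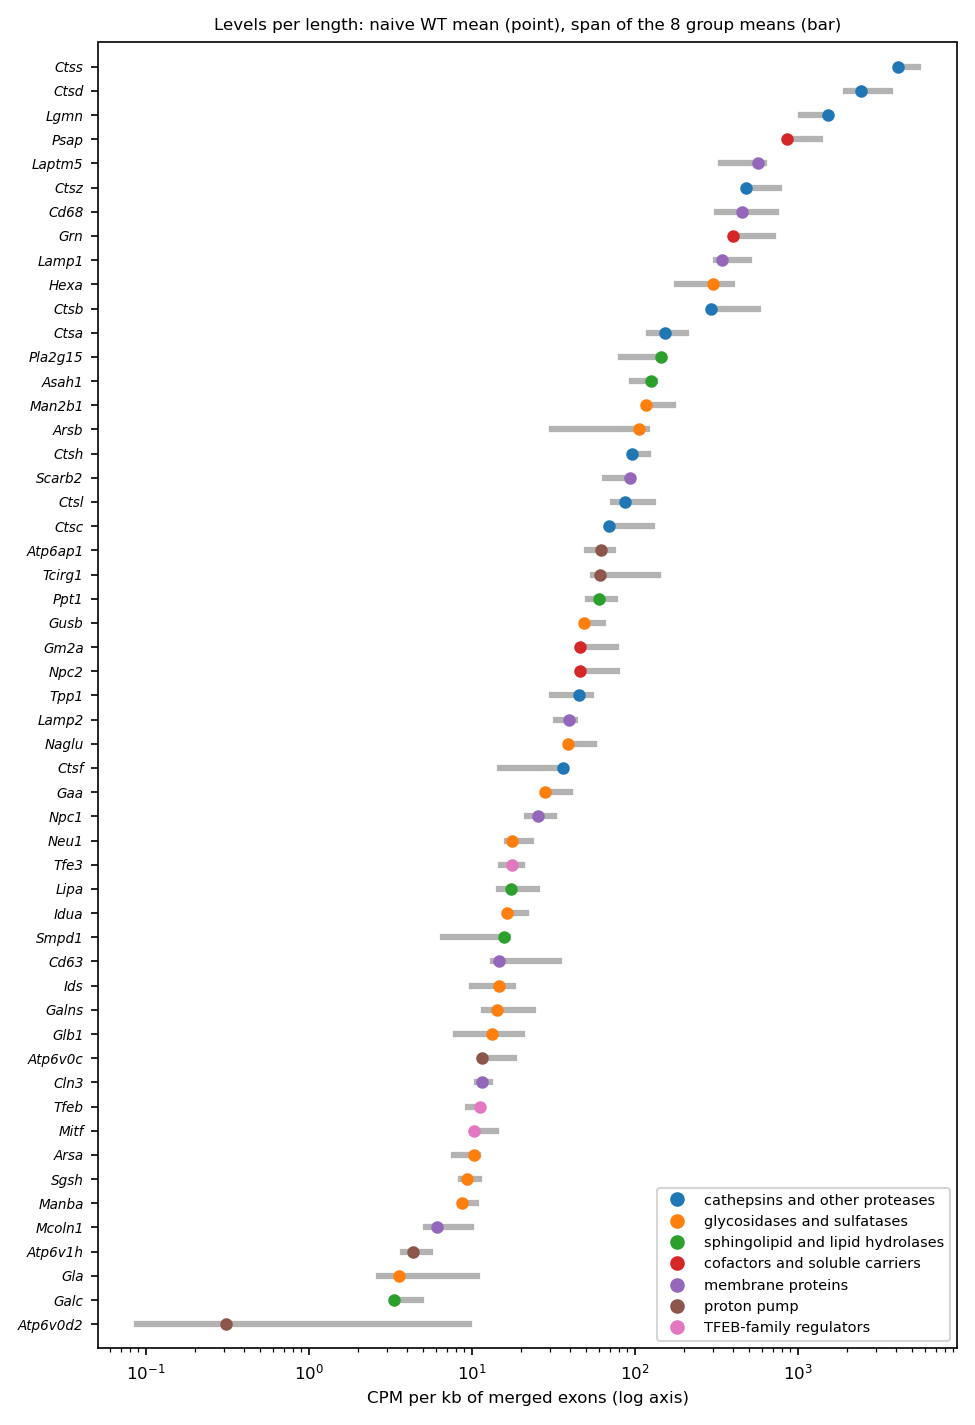
Mean level of each member in naive WT (point, coloured by role) and the span of its 8 group means (bar), in CPM per kb of merged exons on a log axis, in descending order. Ctss is highest at 4121 CPM per kb and Atp6v0d2 lowest at 0.310, and Atp6v0d2 also has the widest span, with its highest group mean 108 times its lowest.

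A gene was called where the edgeR quasi-likelihood test gave a Benjamini-Hochberg adjusted p under 0.05 over all 13880 genes tested, and fold changes are of the group named first over the second. The comparisons share libraries, naive WT above all, so their values are set side by side and are not independent of each other.

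The group in which a member was highest was most often naive old. There 24 of 53 members (45.3%) had their highest mean, against 20.9% of all 13880 genes tested, and 10 members (18.9%, against 25.2% of all genes) were highest in day 21 KO. The group with most lowest means was day 21 KO with 22 members (41.5%, against 27.2% of all genes), followed by naive WT with 14 (26.4%, against 10.4%). Beside Atp6v0d2, the members with the widest span between group means were Gla (3.98 times), Arsb (3.81 times), Cd63 (2.57 times), Glb1 (2.54 times) and Smpd1 (2.54 times). Arsb and Smpd1 were highest in naive KO and lowest in day 21 KO, while Gla ran from lowest in naive KO to highest in day 21 KO.

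**Figure D3:**
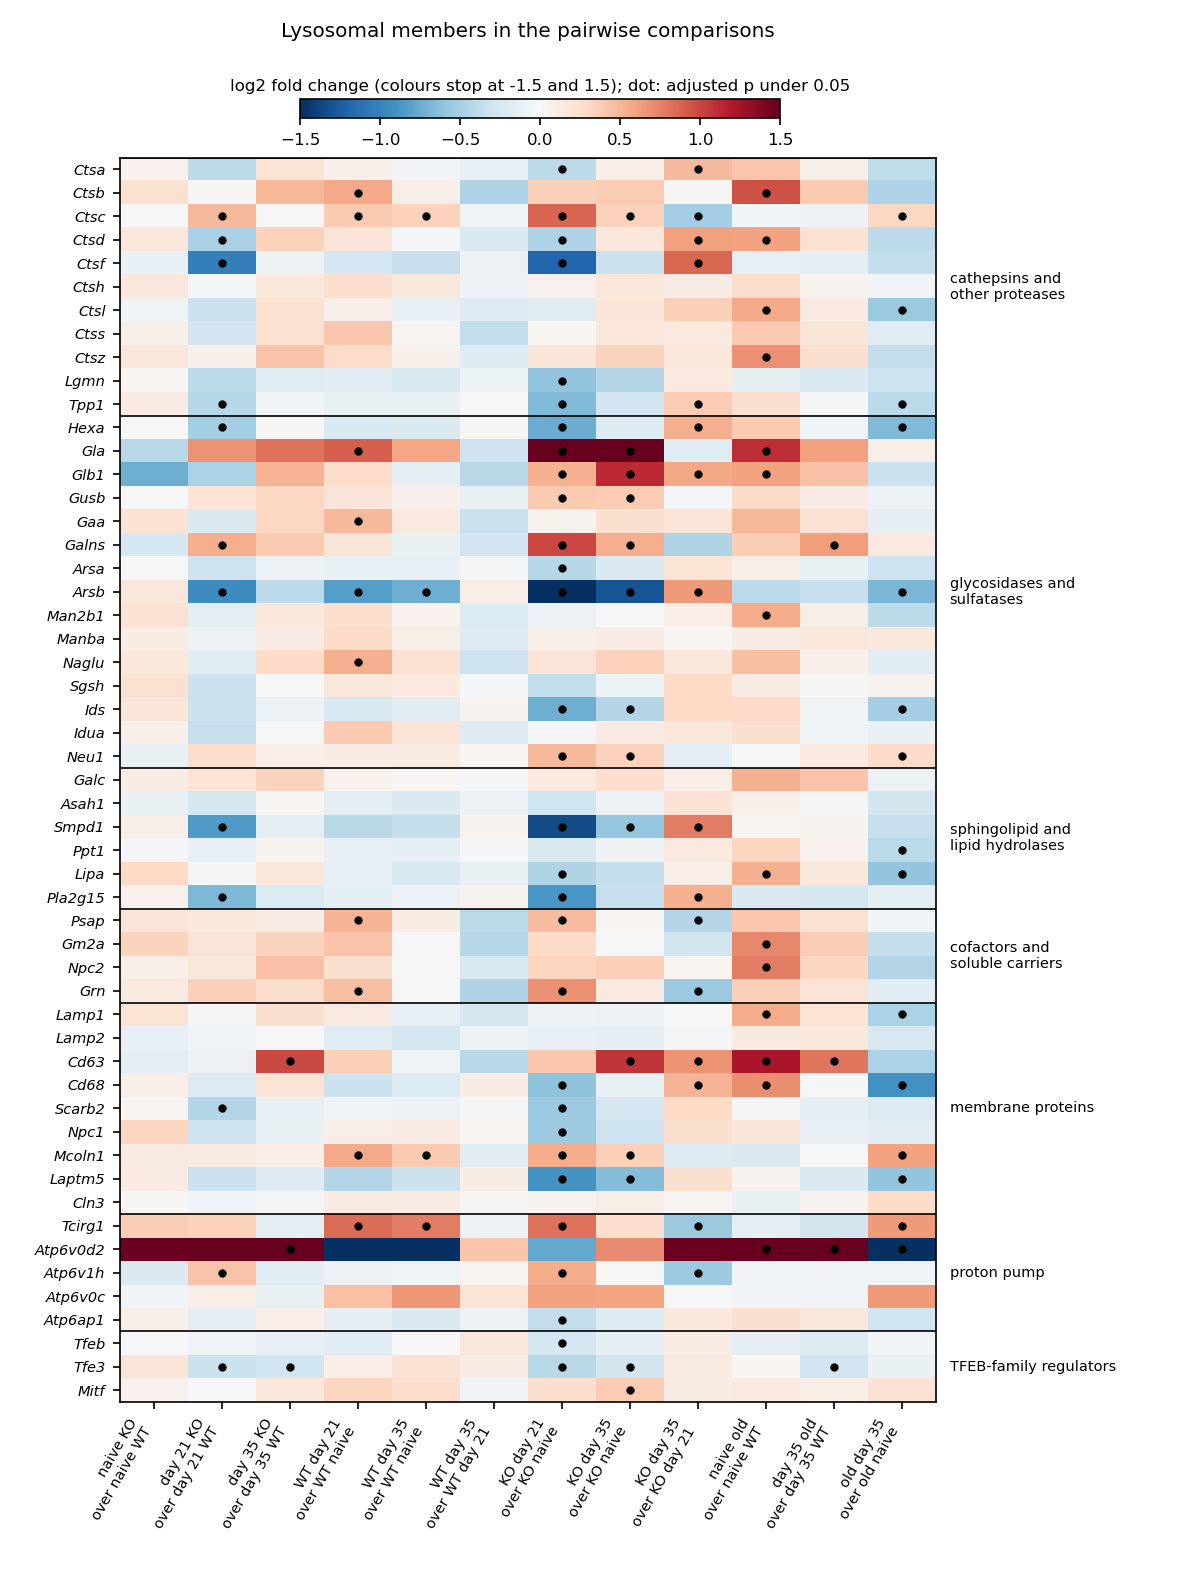
Log2 fold change of each of the 53 members (down the page, by role) in the 12 pairwise comparisons (across), red where the group named first is higher and blue where it is lower, with colours that stop at -1.5 and 1.5. A dot marks an adjusted p under 0.05 over all genes. The column of naive old over naive WT holds 14 dots, all on red, and that of KO day 21 over KO naive holds 30, of which 19 are on blue.

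Whether the lysosomal genes differed between KO and WT mice during EAE was first asked at day 21. Members moved both ways: 3 of 53 rose in KO (Ctsc, Galns and Atp6v1h) and 9 fell (Ctsd, Ctsf, Tpp1, Hexa, Arsb, Smpd1, Pla2g15, Scarb2 and Tfe3). These 12 are 22.6% of the members, against 19% of all genes tested by edgeR at an adjusted p under 0.05 (9.18% higher, 9.86% lower), which is near the background. The median log2 fold change of the members was -0.12, against 0.00 over all genes, and in all 12 the KO and WT libraries did not overlap. Ctsc (ENSMUSG00000030560, GRCm38 chr7:88278085-88310888), the cathepsin C that activates granule proteases, had 778, 754, 737 and 679.9 CPM in the day 21 KO libraries, against 529, 513 and 543 CPM in WT. Every KO library lay above every WT library, and the log2 fold change was 0.48 ± 0.10 (SE, adjusted p = 0.000806). Ctsf, the cathepsin F of the lysosome, was the protease that fell furthest, with 61.9, 67.5, 82.8 and 87.1 CPM in KO against 135, 159 and 163.3 CPM in WT. The highest KO library was well below the lowest WT library, with a log2 fold change of -1.02 ± 0.21 (SE, adjusted p = 0.00116). Tpp1, a tripeptidyl peptidase, fell by 0.43 on the log2 scale (adjusted p = 0.0287) and Ctsd, the main aspartic protease, fell by 0.49 (adjusted p = 0.0488).

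In the sugar and sulfate branch at day 21, Arsb (ENSMUSG00000042082, GRCm38 chr13:93771630-93943016), the sulfatase of dermatan sulfate, had 157, 189, 191 and 211.1 CPM in KO and 357, 361 and 363 CPM in WT. All KO libraries were below all WT libraries, with a log2 fold change of -0.95 ± 0.21 (SE, adjusted p = 0.00251). Hexa changed by -0.51 ± 0.15 (SE, adjusted p = 0.0162), while Galns, the sulfatase of keratan sulfate, changed by 0.55 ± 0.20 (SE, adjusted p = 0.0499). Of the lipid hydrolases Smpd1, the acid sphingomyelinase, had 23.6, 25.6, 22.7 and 16.4 CPM in KO against 35.2, 44.1 and 39.5 CPM in WT. The groups were again apart, with -0.85 ± 0.19 (SE, adjusted p = 0.00278), and Pla2g15 changed by -0.67 ± 0.20 (SE, adjusted p = 0.0163). None of the 4 cofactors and carriers was called, and their median log2 fold change was 0.18. Scarb2, the receptor that delivers beta-glucocerebrosidase to the lysosome, was the called member of the 9 membrane proteins, at -0.44 ± 0.16 (SE, adjusted p = 0.047). In the pump Atp6v1h, a regulatory subunit of its cytosolic part, had 61.5, 49.9, 52.1 and 52.1 CPM in KO against 36.5, 42.2 and 41.2 CPM in WT, with no overlap and a log2 fold change of 0.43 ± 0.12 (SE, adjusted p = 0.0128).

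Of the regulators at day 21, Tfe3 (ENSMUSG00000000134, GRCm38 chrX:7762560-7775202) had 132.5, 137.5, 135 and 154.1 CPM in KO and 196, 165.9 and 163.2 CPM in WT. The highest KO library stayed below the lowest WT library, and the log2 fold change was -0.32 ± 0.09 (SE, adjusted p = 0.0118). Tfeb and Mitf were at -0.07 (adjusted p = 0.719) and 0.01 (adjusted p = 0.972), and neither was called. Of 109 other lysosomal pathway genes tested, 10 rose and 19 fell in KO at day 21, with a median log2 fold change of -0.05. The 4 with the lowest adjusted p all rose: Naaa, an amidase of fatty acid amides, by 1.10, Clcn7, the chloride-proton exchanger of the lysosome, by 0.82, Smpdl3b by 1.55 and Cstb, a cathepsin inhibitor, by 1.35 (log2 fold changes). Ctsc, Ctsf, Arsb and Smpd1 were called under every alternative tried. The count fell to 7, 7 and 6 without WT replicates 1, 2 and 3, and was 31 (58.5% of the members, 8 higher and 23 lower) in a fit of these groups alone, which called 35.2% of all genes (18.7% higher, 16.5% lower). The same KO libraries had 12022 to 12693 CPM of the 12 microglia markers against 20297 to 23798 CPM in WT (9 of 12 lower), and 2281 to 3142 CPM of the 12 monocyte markers against 187 to 516 CPM (7 of 12 higher). Of the other lists, 5 of 10 border macrophage and 6 of 6 tested T and NK cell markers were higher in KO, and 5 of 5 erythroid, 2 of 3 tested B and plasma cell and 1 of 14 neutrophil markers were lower, while Cd209f of the border macrophage list was at 0 in both groups. EAE scores deposited beside the counts were 2.75 to 3 in KO against 2 to 3 in WT. Their part in the result was not tested, and in bulk RNA fewer cells of a type and less RNA per cell cannot be told apart.

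**Figure D4:**
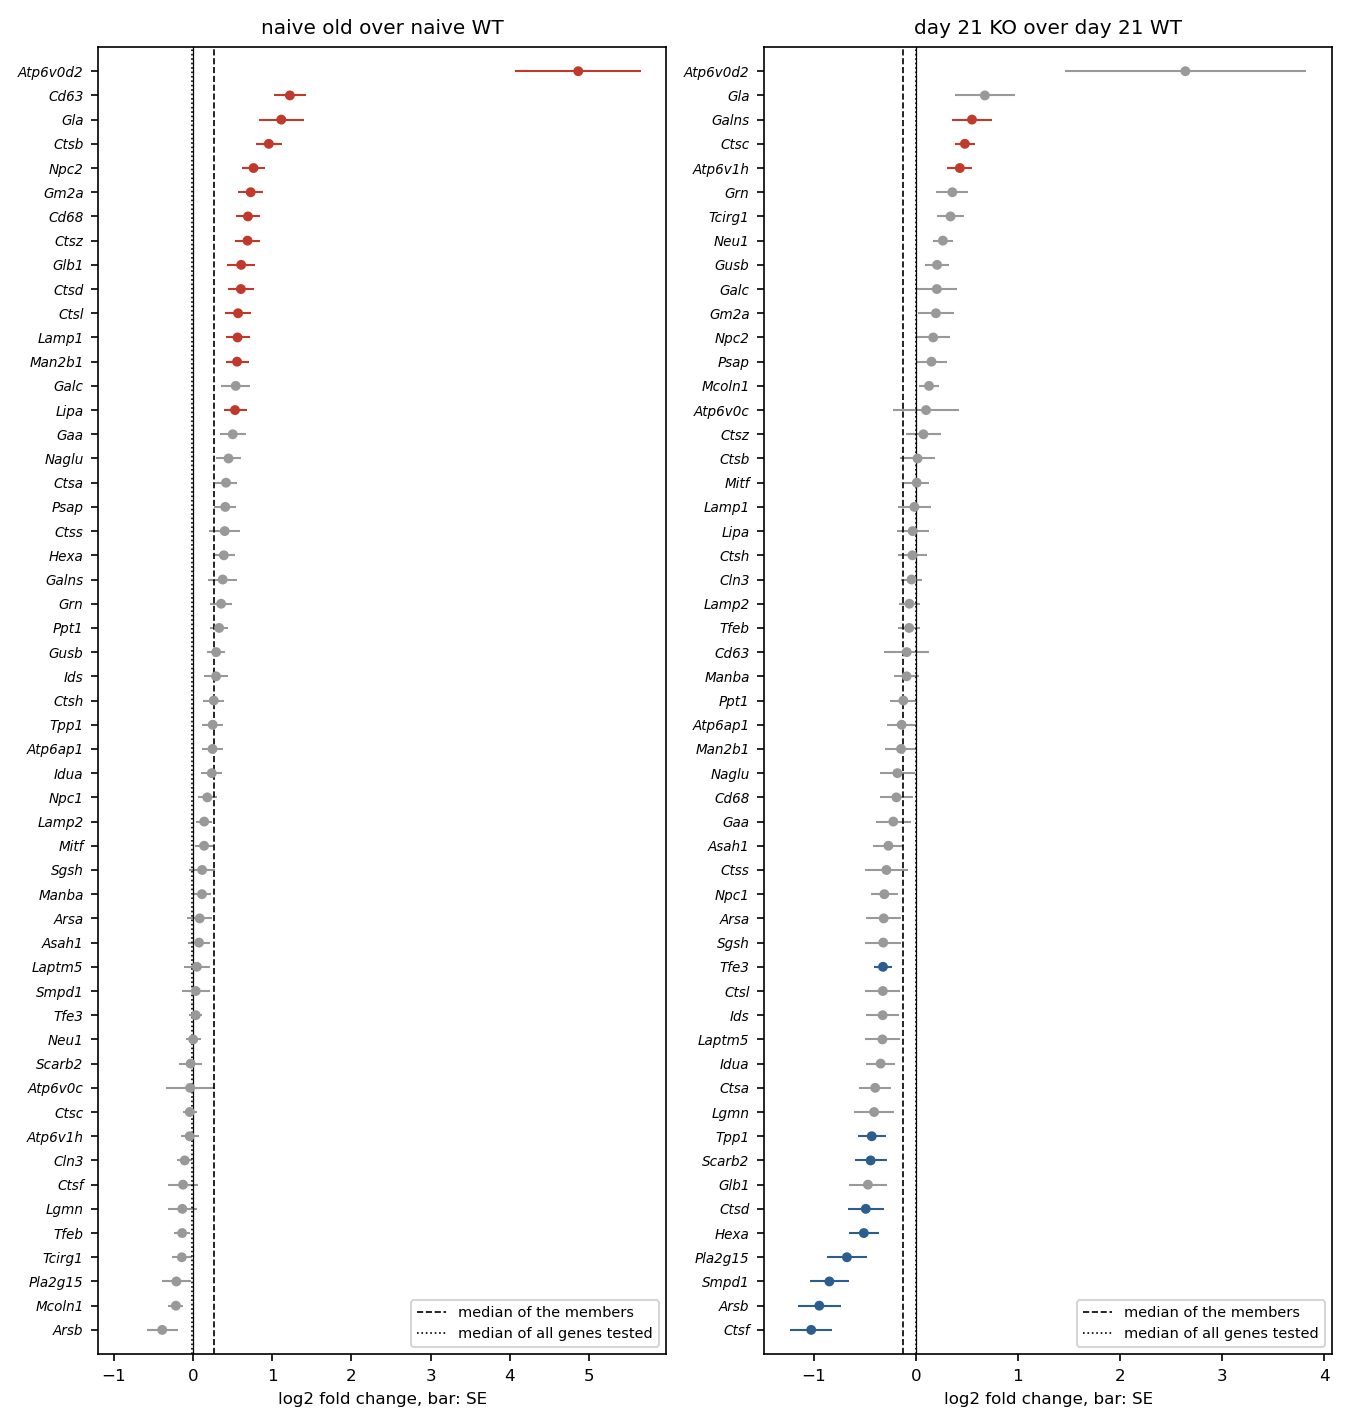
Log2 fold change of each member (point) with its standard error (bar) for naive old over naive WT (left) and day 21 KO over day 21 WT (right), sorted within each panel, with called members in red (higher) or blue (lower) and the others in grey. The median of the members (dashed) is at 0.26 on the left, above the median of all genes (dotted, -0.01), and at -0.12 on the right, below that of all genes (0.00).

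In naive mice no member was called between KO and WT, and 0.288% of all genes were (0.238% higher, 0.0504% lower). At an unadjusted p under 0.05 there were 6 members (5 higher, 1 lower), and DESeq2 called 1. The median log2 fold change was 0.09 over the members and -0.02 over all genes, and 40 of 53 members had a positive value. Tfeb, Tfe3 and Mitf were at 0.01 (adjusted p = 0.993), 0.19 (adjusted p = 0.486) and 0.06 (adjusted p = 0.917). Glb1, the beta-galactosidase of gangliosides, was the member with the lowest adjusted p, at -0.73 ± 0.18 (SE, adjusted p = 0.0924). Its levels were 21.1, 25.8, 27.7 and 22 CPM in naive KO against 35.9, 36.4, 44.1 and 44.3 CPM in naive WT, so that all KO libraries lay below all WT libraries. Exons of Glb1 overlap those of Tmppe on the same strand, and reads there can be split between the genes. Of the 109 other lysosomal pathway genes none was called by edgeR in either direction. Of all marker lists 1 gene, the microglia marker Cx3cr1 that carries the Cre, was called, and it was lower in KO. The neutrophil marker sum was 644 to 3094 CPM in naive KO against 2021 to 16917 CPM in naive WT, and its part in these values was not tested.

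At day 35 of EAE 3 of 53 members (5.66%) differed between KO and WT, against 2.62% of all genes, of which those called higher made up 1.79%. Cd63 and Atp6v0d2 rose in KO and Tfe3 fell. Cd63 (ENSMUSG00000025351, GRCm38 chr10:128900989-128912822), a tetraspanin of late endosomes and lysosomes, had 93.3, 91.0, 141 and 91.6 CPM in day 35 KO and 43.3, 41.99, 62.6 and 61.3 CPM in day 35 WT. The lowest KO library was well above the highest WT library, and the log2 fold change was 0.99 ± 0.21 (SE, adjusted p = 0.0129). Atp6v0d2 (ENSMUSG00000028238, GRCm38 chr4:19876841-19922605) had 4.61, 4.34, 2.54 and 4.72 CPM in KO and 0.858, 0, 0 and 0.289 CPM in WT, and the WT values rest on 8 counts in 26152127 over the group. No library overlapped, and the fitted log2 fold change was 3.70 ± 0.94 (SE, adjusted p = 0.0377) on this low level, with a range of 3.31 to 5.10 and no call when any 1 of the 8 libraries was left out. Tfe3 had 157, 159.6, 154.05 and 143 CPM in KO and 194, 182, 195 and 187 CPM in WT, also without overlap, with -0.30 ± 0.08 (SE, adjusted p = 0.0439). Its call too was lost when any 1 of the 8 libraries was left out. WT replicate 3, whose knockout status field reads KO, was also moved to KO. Cd63 was then called, and Tfe3 (edgeR adjusted p = 0.222) and Atp6v0d2 (edgeR adjusted p = 0.153) were not. Tfeb and Mitf were at -0.12 (adjusted p = 0.54) and 0.17 (adjusted p = 0.404).

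The median log2 fold change of the members at day 35 was 0.10, against 0.00 over all genes. Of the 109 other pathway genes 7 rose and none fell in KO. Those with the lowest adjusted p were Cstb (1.01), the lysosomal transporter gene Mfsd12 (0.71) and Rragd, a GTPase that carries nutrient signals to mTORC1 (1.39), as log2 fold changes, together with the calcium channel gene Mcoln3. Mcoln3 had 33 counts in day 35 KO against 1 in day 35 WT, a ratio of 30.5 with a 95% counting interval of 5.11 to 1241. The counts were pooled over the libraries of each group, so this interval leaves out the spread between libraries. Calls here rested on few libraries. Without 1 of KO replicates 1 to 4 or of WT replicates 1, 2 or 4 in turn, 1 or 0 members were called (0 without KO replicate 3 or WT replicate 2), and no member was called under every alternative. The neutrophil sum was 667 to 3862 CPM in day 35 KO against 599 to 810.4 CPM in day 35 WT with 5 of 14 markers higher, as were 1 of 10 border macrophage and 1 of 5 erythroid markers, and the monocyte sum averaged 1131 ± 216 CPM in day 35 KO against 221 ± 98.0 CPM in day 35 WT (SD, n = 4 each) with none of 12 called. The EAE score deposited beside the counts was 2.5 to 3 in day 35 KO against 1 to 1.5 in day 35 WT. The part of the markers and of the score in the result was not tested.

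EAE itself was followed in WT mice from naive to day 21 and day 35. At day 21, 9 members rose against naive WT (Ctsb, Ctsc, Gla, Gaa, Naglu, Psap, Grn, Mcoln1 and Tcirg1) and Arsb fell. The 10 members are 18.9% of 53, against 21.5% of all genes (9.51% higher, 12% lower), and the median log2 fold change was 0.11 for the members. At day 35, Ctsc, Mcoln1 and Tcirg1 were higher and Arsb lower than in naive WT, 7.55% of the members against 19.1% of all genes (8.4% higher, 10.7% lower), with a median of -0.01. Both comparisons share the naive WT libraries. Between day 35 and day 21 no member was called in WT, against 0.0648% of all genes (0.0072% higher, 0.0576% lower). There, 5 members had an unadjusted p under 0.05, all lower at day 35, and DESeq2 called none.

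Tcirg1 (ENSMUSG00000001750, GRCm38 chr19:3896050-3907133), a subunit of the pump's membrane part, had 306.1, 225, 292 and 309 CPM in naive WT, 526, 532 and 461 CPM at day 21 and 582, 474, 409.7 and 458 CPM at day 35. Every EAE library was above every naive library, with log2 fold changes of 0.84 ± 0.13 (SE, adjusted p = 4.84e-05) at day 21 and 0.76 ± 0.12 (SE, adjusted p = 0.00017) at day 35. Mcoln1 (ENSMUSG00000004567, GRCm38 chr8:3500457-3515232), whose promoter is printed above, had 48.8, 41.0, 48.8 and 45.9 CPM in naive WT, 68.2, 72.0 and 64.9 CPM at day 21 and 68.3, 58.7, 55.3 and 60.6 CPM at day 35. It too rose without overlap, by 0.56 ± 0.10 (SE, adjusted p = 0.00019) and 0.39 ± 0.09 (SE, adjusted p = 0.00455). Ctsc had 424, 441, 368 and 374 CPM in naive WT, 529, 513 and 543 CPM at day 21 and 547, 478, 514 and 510.5 CPM at day 35, with 0.39 ± 0.09 (SE, adjusted p = 0.00352) and 0.35 ± 0.09 (SE, adjusted p = 0.0068). Arsb went the other way, with 628, 686, 553 and 679 CPM in naive WT, 357, 361 and 363 CPM at day 21 and 330.3, 348, 448 and 405 CPM at day 35. Its naive libraries were all above its EAE libraries, and the log2 fold changes were -0.82 ± 0.21 (SE, adjusted p = 0.00752) and -0.73 ± 0.20 (SE, adjusted p = 0.0109). These 4 genes kept their calls under every alternative tried at both days.

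Among the members called at day 21 but not at day 35, Psap had 3207, 3293 and 3621 CPM at day 21 against 2256, 2516, 2347 and 2354 CPM in naive WT, a log2 fold change of 0.51 ± 0.15 (SE, adjusted p = 0.0163). Ctsb, the cysteine protease cathepsin B, had 2409, 2773 and 2753 CPM at day 21 against 1907, 1662, 1802 and 1758 CPM in naive WT, with 0.57 ± 0.17 (SE, adjusted p = 0.0194). In both genes the day 21 libraries were all higher. Grn, whose product progranulin is processed in the lysosome, changed by 0.45 (adjusted p = 0.0351), Naglu, a glucosaminidase of heparan sulfate, by 0.53 (adjusted p = 0.0251), Gaa, the acid alpha-glucosidase of glycogen, by 0.49 (adjusted p = 0.0431) and Gla by 0.89 (adjusted p = 0.0328). The day 21 count fell to 5 and 4 without WT day 21 replicates 2 and 3, and was 18 (33.96%, 15 higher and 3 lower) in a fit of these groups alone, which called 27.7% of all genes (13% higher, 14.6% lower). At day 21, Tfeb, Tfe3 and Mitf were at -0.17 (adjusted p = 0.264), 0.10 (adjusted p = 0.447) and 0.32 (adjusted p = 0.0602). At day 35 against naive they were at -0.01 (adjusted p = 0.968), 0.22 (adjusted p = 0.0657) and 0.27 (adjusted p = 0.0992), and at day 35 against day 21 at 0.17 (adjusted p = 0.877), 0.11 (adjusted p = 0.905) and -0.05 (adjusted p = 0.99), with none called. Mitf at day 21 was called higher by DESeq2 (adjusted p = 0.0484) and in the fit of these groups alone (edgeR adjusted p = 0.0218), and Tfe3 at day 35 by DESeq2 (adjusted p = 0.0290) and by edgeR without day 35 old replicate 1 (adjusted p = 0.0422). Of 109 other pathway genes, 12 rose and 14 fell at day 21 and 10 rose and 14 fell at day 35. Clcn7 (0.83), Gnptab, which makes the sorting tag of hydrolases (1.14), Smpdl3b (-1.66) and Cd164 (-1.04) had the lowest adjusted p at day 21 (log2 fold changes). At day 35 these were Smpdl3b (-1.22), Cd164 (-0.81), the pump subunit gene Atp6v0d1 (-0.54) and the amino acid transporter gene Slc36a1 (0.49). The neutrophil sum was 2021 to 16917 CPM in naive WT, 699.8 to 725 CPM at day 21 and 599 to 810.4 CPM at day 35, with 13 of 14 markers lower and 1 higher at each day. Of 12 monocyte and 10 border macrophage markers 6 and 7 were lower at each day, and of 12 microglia markers 4 were lower at day 21 and 3 at day 35. Of 8 astrocyte markers 3 were higher at day 21 and 1 at day 35, 2 of 6 tested oligodendrocyte markers were higher at day 21, and of 6 tested T and NK cell markers 1 was higher and 2 were lower at day 35. The astrocyte sum was 168.7 to 200 CPM in naive WT, 299 to 343 CPM at day 21 and 209 to 346.5 CPM at day 35. Their part in these results was not tested.

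**Figure D5:**
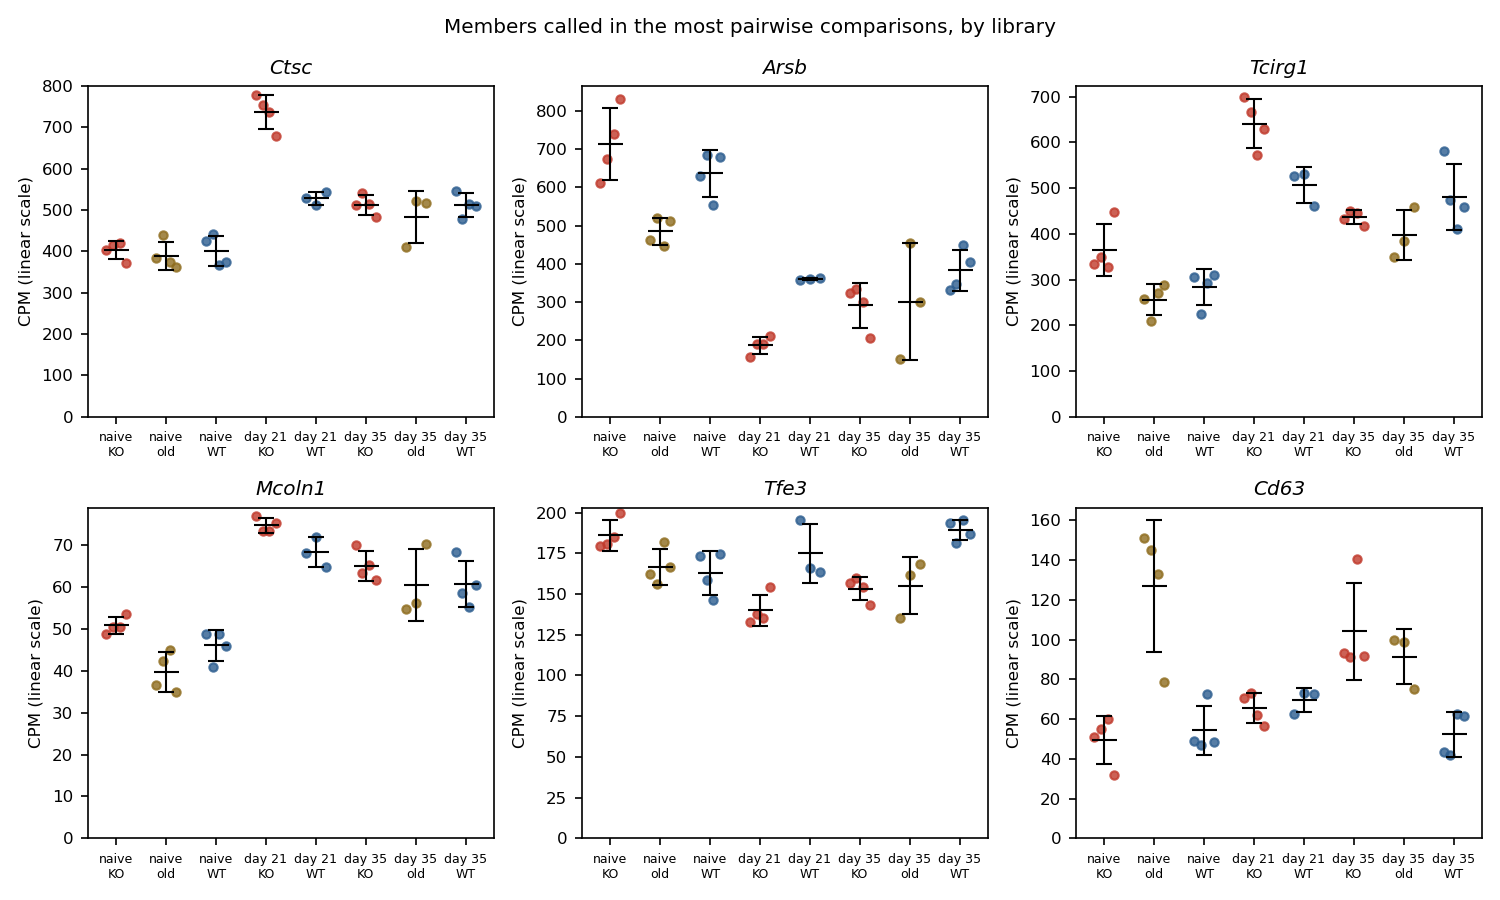
Level in every library (points, CPM on linear axes from 0) of the 6 members called in the most pairwise comparisons, with the group mean and SD in black, for KO (red), old (brown) and WT (blue) mice. Ctsc is highest in day 21 KO (679.9 to 778 CPM), Arsb is highest in naive KO and lowest in day 21 KO, and Cd63 is highest in naive old, with replicate 4 of that group at 78.5 CPM.

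In KO mice 30 of 53 members (56.6%) differed between day 21 and naive, against 45.2% of all genes (22.5% higher, 22.7% lower), with 11 higher and 19 lower. The median log2 fold change was -0.08 for the members. The proteases that fell were Ctsf (-1.19), Tpp1 (-0.67), Lgmn (-0.59), Ctsd and Ctsa, while Ctsc was the protease that rose. Ctsc had 778, 754, 737 and 679.9 CPM at day 21 against 404, 417, 420.2 and 371 CPM in naive KO, with no overlap and a log2 fold change of 0.87 ± 0.09 (SE, adjusted p = 6.55e-09). Arsb had 157, 189, 191 and 211.1 CPM at day 21 against 610.5, 674, 738 and 831 CPM in naive KO. The lowest naive library was far above the highest day 21 library, and the log2 fold change was -1.93 ± 0.20 (SE, adjusted p = 2.25e-08). Gla had 37.4, 37.5, 31.1 and 34.7 CPM at day 21 against 9.14, 9.76, 7.21 and 9.24 CPM in naive KO, higher in every library, with 1.99 ± 0.28 (SE, adjusted p = 2.99e-06).

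Of the other sugar hydrolases in KO at day 21, Galns (1.00), Neu1, the lysosomal sialidase (0.49), Glb1 (0.54) and Gusb (0.39) rose, while Hexa (-0.74), Ids (-0.73) and Arsa fell (log2 fold changes). Smpd1 had 23.6, 25.6, 22.7 and 16.4 CPM at day 21 against 56.7, 60.5, 57.1 and 49.6 CPM in naive KO. This fall had no overlap and a log2 fold change of -1.35 ± 0.18 (SE, adjusted p = 8.7e-07), and Pla2g15 (-0.88) and Lipa, the acid lipase of cholesteryl esters (-0.45), fell as well. The cofactors Grn (0.68) and Psap (0.47) rose. In the membrane, Laptm5 (-0.89), Cd68 (-0.61), Scarb2 (-0.55) and Npc1, the membrane cholesterol exporter (-0.54), fell, while Mcoln1 had 76.9, 73.5, 73.3 and 75.3 CPM at day 21 against 48.8, 50.5, 50.4 and 53.7 CPM in naive KO. Mcoln1 was higher in every day 21 library, at 0.56 ± 0.09 (SE, adjusted p = 1.65e-05). Tcirg1 had 699, 665, 571 and 629 CPM at day 21 against 334, 350.1, 326.6 and 449 CPM in naive KO, also apart, at 0.81 ± 0.12 (SE, adjusted p = 5.03e-06). Atp6v1h rose (0.55), Atp6ap1 fell, and Tfe3 and Tfeb fell by 0.41 and 0.25 on the log2 scale (adjusted p = 0.000193 and 0.0432), with Mitf at 0.27 (adjusted p = 0.0554), which DESeq2 called (adjusted p = 0.0394). Exons of Npc1 and Arsa overlap a gene on the other strand, and the strand setting of the counts is not given in the sources used here. Of the 30 calls, 24 held under every alternative tried, and the count ran from 26 to 32 with single libraries left out. Of 109 other pathway genes 24 rose and 31 fell, led by Clcn7 (1.37), Cd164 (-1.59), Naaa (1.40) and Cst3, a secreted cathepsin inhibitor (-2.68). The microglia marker sum was 12022 to 12693 CPM at day 21 against 27389.5 to 29113 CPM in naive KO (9 of 12 lower), and the neutrophil sum 483 to 606 CPM against 644 to 3094 CPM (11 of 14 lower). The monocyte sum was 2281 to 3142 CPM at day 21 against 38.7 to 544 CPM in naive KO (3 of 12 higher), and that of the T and NK cell list 23.9 to 29.0 CPM against 1.17 to 12.5 CPM (3 of 6 tested higher). All 3 tested B and plasma cell markers and 2 of 5 erythroid markers were lower, 3 of 10 border macrophage markers were higher and 3 lower, 1 of 8 astrocyte markers was higher, and of 6 tested oligodendrocyte markers 1 was higher and 1 lower. Their part in the result was not tested.

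At day 35 against naive KO, 14 members (26.4%) were called, against 21.4% of all genes (11.6% higher, 9.81% lower), with 9 higher and 5 lower and a member median of 0.09. Arsb had 324.7, 334, 300.9 and 205.4 CPM at day 35 against 610.5, 674, 738 and 831 CPM in naive KO (log2 fold change -1.29 ± 0.20, SE, adjusted p = 7.18e-05). Gla had 28.7, 32.6, 28.7 and 34.01 CPM at day 35 against 9.14, 9.76, 7.21 and 9.24 CPM in naive KO (log2 fold change 1.81 ± 0.28, SE, adjusted p = 8.5e-05). Both kept the direction of day 21 relative to the same naive libraries, with no overlap. Glb1 had 48.4, 54.1, 64.6 and 42.7 CPM at day 35 against 21.1, 25.8, 27.7 and 22 CPM in naive KO (log2 fold change 1.12 ± 0.18, SE, adjusted p = 9.62e-05), and Cd63 had 93.3, 91.0, 141 and 91.6 CPM against 51.1, 55.1, 59.8 and 31.97 CPM (log2 fold change 1.07 ± 0.20, SE, adjusted p = 0.000736). In both, every day 35 library was higher. Laptm5, a membrane protein of haematopoietic lysosomes, had 1731, 1614, 1605 and 1083 CPM at day 35 against 2250.4, 2482, 2626 and 2088 CPM in naive KO, lower throughout (log2 fold change -0.65 ± 0.16, SE, adjusted p = 0.0053). Ctsc had 512, 542, 514 and 483 CPM at day 35, above all naive KO libraries (log2 fold change 0.35 ± 0.09, SE, adjusted p = 0.00611). Mcoln1 (0.36), Neu1 (0.35), Gusb (0.38), Galns (0.54) and Mitf (0.38, adjusted p = 0.0175) also rose, and Smpd1 (-0.58), Ids (-0.44) and Tfe3 (-0.28, adjusted p = 0.0167) fell, Ids with overlapping libraries, while Tfeb was at -0.14 (adjusted p = 0.348). Of the 109 other pathway genes 16 rose and 16 fell, led by Cd164 (-1.18), Mfsd12 (0.95), Smpdl3b (-1.16) and Gnptab (0.96). All 8 astrocyte markers, 5 of 6 tested oligodendrocyte and 5 of 6 tested neuron markers were higher at day 35 (sums of 309.8 to 489, 153 to 403 and 1.27 to 83.8 CPM, against 153.5 to 247, 111.6 to 170.4 and 2.51 to 11.9 CPM in naive KO), and 8 of 12 microglia markers were lower and 1 higher. All 5 erythroid markers were higher, with sums of 55.1 to 212.3 CPM at day 35 against 2.57 to 21.4 CPM in naive KO, as was 1 of 12 monocyte markers. Of 10 border macrophage markers 6 were lower and 1 higher, with summed levels of 84.7 ± 26.6 CPM at day 35 against 217.6 ± 122.7 CPM in naive KO (SD, n = 4 each), and 1 of 6 tested T and NK cell and 1 of 3 tested B and plasma cell markers were lower. Their part in the result was not tested.

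From day 21 to day 35 in KO, 16 members (30.2%) changed, against 24.9% of all genes (13.3% higher, 11.7% lower), with 11 higher and 5 lower at day 35 and a member median of 0.15. Ctsc fell to 512, 542, 514 and 483 CPM at day 35, against 778, 754, 737 and 679.9 CPM at day 21 (log2 fold change -0.52 ± 0.09, SE, adjusted p = 8.41e-05). Atp6v1h fell to 35.6, 35.6, 35.8 and 40.8 CPM, against 61.5, 49.9, 52.1 and 52.1 CPM at day 21 (log2 fold change -0.54 ± 0.11, SE, adjusted p = 0.000734), and Tcirg1 to 432, 451, 445 and 417 CPM, against 699, 665, 571 and 629 CPM (log2 fold change -0.56 ± 0.12, SE, adjusted p = 0.00152). All 3 genes had no overlap between the days. Ctsf rose to 143, 148.5, 154.05 and 99.8 CPM at day 35, against 61.9, 67.5, 82.8 and 87.1 CPM at day 21 (log2 fold change 0.86 ± 0.20, SE, adjusted p = 0.00214), and Smpd1 to 40.4, 41.5, 41.7 and 26.2 CPM, against 23.6, 25.6, 22.7 and 16.4 CPM (log2 fold change 0.76 ± 0.18, SE, adjusted p = 0.00294). Hexa rose to 536, 513, 644 and 419 CPM, against 326.4, 359, 388 and 376 CPM (log2 fold change 0.54 ± 0.14, SE, adjusted p = 0.00511). In all 3 the day 35 libraries were higher throughout, with replicate 4 the lowest of them. Ctsd (0.62), Ctsa (0.49), Tpp1 (0.39), Arsb (0.64), Glb1 (0.58), Pla2g15 (0.53), Cd68 (0.51) and Cd63 (0.67) also rose, and Grn (-0.55) and Psap (-0.44) fell. The libraries of the 2 days overlapped in Tpp1, Arsb, Pla2g15 and Cd68. Tfeb, Tfe3 and Mitf were at 0.11 (adjusted p = 0.434), 0.13 (adjusted p = 0.25) and 0.11 (adjusted p = 0.501). The count was 10 without day 35 KO replicate 3. Of the 109 other pathway genes 16 rose and 13 fell, led by Naaa (-1.42), Clcn7 (-0.94), Rragd (2.85) and Cst3 (1.98). The monocyte sum was 979.8 to 1445 CPM at day 35 against 2281 to 3142 CPM at day 21 (5 of 12 lower), and the microglia sum 14626 to 21417 CPM against 12022 to 12693 CPM (8 of 12 higher). All 5 erythroid markers were higher, with sums of 55.1 to 212.3 CPM at day 35 against 0.785 to 4.00 CPM at day 21, as were all 6 tested neuron markers (1.27 to 83.8 CPM against 2.82 to 5.38 CPM). Of the other lists 7 of 14 neutrophil, 3 of 3 tested B and plasma cell, 4 of 8 astrocyte and 2 of 6 tested oligodendrocyte markers were higher at day 35. All 6 tested T and NK cell markers and 5 of 10 border macrophage markers were lower, with T and NK cell sums of 1.20 to 4.16 CPM at day 35 against 23.9 to 29.0 CPM at day 21. Their part in the result was not tested.

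Whether the response to EAE differed between KO and WT was tested with interaction terms. From naive to day 21, 7 members (13.2%, against 9.68% of all genes, 4.72% positive and 4.96% negative) changed differently. The change of Ctsc and Atp6v1h was more positive in KO by 0.48 ± 0.13 and 0.65 ± 0.16 (log2, SE; adjusted p = 0.021 and 0.0148), and that of Tfe3, Arsb, Smpd1, Ctsf and Npc1 was more negative, at -0.51, -1.11, -0.93, -0.92 and -0.63 with adjusted p of 0.00983 to 0.0402. Arsb fell in both genotypes at day 21, while Tfe3 was at -0.41 in KO and 0.10 in WT. The count was 4 without naive WT replicate 3, 3 without day 21 WT replicate 2 or 3, and 14 without day 35 old replicate 1. That old library is in no group of this contrast and enters through the gene filter, the scaling and the shared estimate of the spread. In the same contrast 9 of 12 monocyte, 5 of 10 border macrophage and 2 of 6 tested T and NK cell markers were more positive in KO, 7 of 12 microglia markers (1 positive) and 2 of 3 tested B and plasma cell markers were more negative, and of 14 neutrophil markers 1 was more positive and 1 more negative. Their part was not tested. From naive to day 35, Glb1 was the called member (1.89%, against 0.367% of all genes, 0.238% positive and 0.13% negative), with 1.26 ± 0.25 (SE, adjusted p = 0.0246), and it was lost without naive KO replicate 1 or 2, naive WT replicate 3 or day 35 WT replicate 1 or 2. With day 35 old replicate 1 left out the count was 4, and 2 without naive WT replicate 1. In the naive to day 35 contrast 2 of 14 neutrophil and 1 of 12 microglia markers were more positive in KO, and their part was not tested. From day 21 to day 35, 4 members were called (7.55%, against 2.67% of all genes, 1.86% positive and 0.807% negative): Glb1 at 1.00 (adjusted p = 0.0346) and Cd63 at 1.08 (adjusted p = 0.0495), more positive in KO, and Ctsc at -0.48 (adjusted p = 0.0415) and Atp6v1h at -0.59 (adjusted p = 0.0495), more negative. Leaving out single libraries moved this count to between 0 and 7, and it was 6 without day 35 KO replicate 4, where Ctsc was not called (adjusted p = 0.0639) and the other 3 were, and 6 without day 35 WT replicate 3, where all 4 were. It was 0 without day 21 KO replicate 2 or 3, day 21 WT replicate 2 or 3, day 35 KO replicate 2 or 3 or day 35 WT replicate 1. It was 1 without day 21 KO replicate 1 or 4, day 21 WT replicate 1, day 35 KO replicate 1 or day 35 WT replicate 2, 2 without day 35 WT replicate 4, and 7 without day 35 old replicate 1. All 5 erythroid markers were more positive in KO in the day 21 to day 35 contrast. So were 2 of 12 microglia, 1 of 3 tested B and plasma cell and 1 of 6 tested oligodendrocyte markers. Of 6 tested T and NK cell markers 1 was more negative, and the part of all these markers was not tested.

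Old mice were set against WT mice when naive and at day 35. No Cre is stated for the old mice, so age and Cre status cannot be told apart here. In naive microglia 14 of 53 members (26.4%) were higher in old than in WT and none was lower. Of all genes 8.18% were called, 5.03% higher and 3.15% lower. The median log2 fold change was 0.26 over the members and -0.01 over all genes. The cathepsins Ctsb, Ctsz, Ctsd and Ctsl, the glycosidases Gla, Glb1 and Man2b1, the lipase Lipa, the cofactors Gm2a and Npc2, the membrane proteins Cd63, Cd68 and Lamp1 and the pump subunit Atp6v0d2 made up the list. Ctsb (ENSMUSG00000021939, GRCm38 chr14:63122462-63145923) had 3905, 3409.7, 4030.3 and 2482 CPM in naive old and 1907, 1662, 1802 and 1758 CPM in naive WT. All old libraries were higher, with replicate 4 the lowest of them, and the log2 fold change was 0.96 ± 0.16 (SE, adjusted p = 0.000459). Ctsz, Ctsd and Ctsl changed by 0.69 (adjusted p = 0.00703), 0.60 (adjusted p = 0.021) and 0.57 (adjusted p = 0.0254), and Gla, Glb1 and Man2b1, an alpha-mannosidase, by 1.11 (adjusted p = 0.0143), 0.61 (adjusted p = 0.0325) and 0.55 (adjusted p = 0.0179). Lipa changed by 0.53 (adjusted p = 0.0223), and in Lipa, Ctsl and Gla the groups overlapped.

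The cofactor Gm2a, the activator that presents gangliosides to hexosaminidase, had 333, 326.96, 339 and 258 CPM in naive old against 175, 209.7, 188 and 187 CPM in naive WT, apart in all libraries (log2 fold change 0.73 ± 0.16, SE, adjusted p = 0.00506). Npc2 (ENSMUSG00000021242, GRCm38 chr12:84754562-84773152) had 469.6, 488, 418 and 312.1 CPM in naive old against 235, 266, 264 and 230.1 CPM in naive WT (log2 fold change 0.76 ± 0.15, SE, adjusted p = 0.0018). Again every old library was higher. Cd63 had 151, 145, 133 and 78.5 CPM in naive old against 49.1, 47.1, 72.8 and 48.5 CPM in naive WT (log2 fold change 1.22 ± 0.21, SE, adjusted p = 0.000509). The gap was narrow, since old replicate 4 and WT replicate 3 lay near each other. Cd68, a glycoprotein of macrophage endosomes and lysosomes, had 932, 836, 1143 and 800.1 CPM in naive old against 547, 694, 518 and 539.6 CPM in naive WT, without overlap (log2 fold change 0.69 ± 0.15, SE, adjusted p = 0.0044), and Lamp1, the main glycoprotein of the lysosomal membrane, changed by 0.56 (adjusted p = 0.0204). Atp6v0d2 had 19.5, 27.1, 51.9 and 5.77 CPM in naive old and 0.294, 0.235, 2.69 and 0.143 CPM in naive WT, or 627 counts in 25693425 over the old group and 22 in 24640347 over the WT group. Of the 22 WT counts most came from replicate 3, every old library was higher, and the fitted log2 fold change was 4.86 ± 0.80 (SE, adjusted p = 0.000452), with a range of 4.30 to 6.76 when single libraries were left out and a call each time.

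In naive old over naive WT, Tfeb, Tfe3 and Mitf were at -0.14 (adjusted p = 0.437), 0.03 (adjusted p = 0.873) and 0.14 (adjusted p = 0.509), with none called. These are RNA levels only, and the activity of the factors was not measured. Of 109 other pathway genes 20 were higher in naive old and 1, the amino acid sensor gene Slc38a9 (-0.47), was lower, with a median of 0.19 (log2). They included 5 of 14 other pump subunits and 5 of 35 other hydrolases and activators. Cstb (1.36), Rragd (2.07), the dipeptidyl peptidase gene Dpp7 (0.83) and Mcoln3 had the lowest adjusted p. Mcoln3 had 50 counts in naive old against 1 in naive WT, a ratio of 48 with a 95% counting interval of 8.22 to 1931. This interval too is on pooled counts and leaves out the spread between libraries. Ctsb, Ctsz, Gm2a, Npc2, Cd63, Cd68 and Atp6v0d2 kept their calls under every alternative tried. The count was 9, 7 and 7 without naive old replicates 1 and 3 and naive WT replicate 4 in turn, and 21 without naive old replicate 4. The neutrophil sum was 7527 to 14314 CPM in naive old against 2021 to 16917 CPM in naive WT and the monocyte sum 1007 to 1574 CPM against 240 to 2064 CPM, with no marker of either list called, and the microglia sum was 26968 to 29867 CPM against 23197 to 34219.8 CPM, also with none called. Of all marker lists 1 gene, the astrocyte marker Aldh1l1, was called.

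At day 35 of EAE 4 members (7.55%) differed between old and WT, against 9.45% of all genes (7.51% higher, 1.94% lower), with a member median of 0.07. Cd63 had 99.6, 99.0 and 75.4 CPM in day 35 old against 43.3, 41.99, 62.6 and 61.3 CPM in day 35 WT (log2 fold change 0.80 ± 0.22, SE, adjusted p = 0.0223). Atp6v0d2 had 7.40, 0.975 and 3.47 CPM in day 35 old against 0.858, 0, 0 and 0.289 CPM in day 35 WT (log2 fold change 3.63 ± 0.98, SE, adjusted p = 0.0223). Both were higher in every old library. The WT level of Atp6v0d2 rests on the 8 counts given above, and its fitted log2 fold change ran from 2.81 to 5.04 with single libraries left out, with no call without day 35 old replicate 1 or WT replicate 2, 3 or 4. Galns had 78.4, 42.6 and 41.98 CPM in day 35 old against 31.6, 31.2, 41.2 and 36.4 CPM in day 35 WT (log2 fold change 0.63 ± 0.20, SE, adjusted p = 0.041), with replicate 1 far above the other old libraries and a log2 fold change of 0.27 without it. Tfe3 had 135, 161.7 and 168.6 CPM in day 35 old against 194, 182, 195 and 187 CPM in day 35 WT (log2 fold change -0.29 ± 0.09, SE, adjusted p = 0.0408), lower throughout. Tfeb and Mitf were at -0.20 (adjusted p = 0.275) and 0.08 (adjusted p = 0.743). No member was called without day 35 old replicate 1 or without WT replicate 2, 2 without WT replicate 1 and 1 without WT replicate 4. A fit of these groups alone called no member and no gene among 12376 tested by edgeR. That old library held 32317 CPM of neutrophil markers, 13 of 14 of which were called higher in day 35 old, as were 8 of 12 monocyte, 1 of 10 border macrophage and 1 of 3 tested B and plasma cell markers, and EAE scores were 2.75 to 3 in day 35 old against 1 to 1.5 in day 35 WT. The part of these markers and scores in the result was not tested. Of the 109 other pathway genes 9 rose and 1 fell, led by Cstb (0.92), the mannose 6-phosphate receptor gene Igf2r (2.60), Atp6v1b2 (0.44) and Nceh1 (1.05).

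Within old mice, 15 members (28.3%) changed from naive to day 35, against 18.4% of all genes (10.4% higher, 8.03% lower), with 4 higher and 11 lower and a member median of -0.24 against 0.03 over all genes. Mcoln1 had 54.9, 56.2 and 70.3 CPM in day 35 old against 36.6, 42.3, 45.1 and 34.95 CPM in naive old (log2 fold change 0.61 ± 0.10, SE, adjusted p = 0.000273), and Tcirg1 had 350.2, 385 and 458 CPM against 257, 209.5, 270.3 and 289 CPM (log2 fold change 0.63 ± 0.13, SE, adjusted p = 0.00194). Both rose with no overlap, and Ctsc (0.31) and Neu1 (0.28) rose too. Cd68 had 402, 585 and 500.0 CPM in day 35 old against 932, 836, 1143 and 800.1 CPM in naive old (log2 fold change -0.90 ± 0.17, SE, adjusted p = 0.000683), and Hexa had 379, 637 and 488 CPM against 907, 788, 799.8 and 672 CPM (log2 fold change -0.66 ± 0.15, SE, adjusted p = 0.00419). In both the day 35 libraries were all lower. Lipa had 102.7, 130.5 and 103.4 CPM in day 35 old against 181, 174, 215 and 107 CPM in naive old (log2 fold change -0.59 ± 0.16, SE, adjusted p = 0.0111), and Atp6v0d2 had 7.40, 0.975 and 3.47 CPM against 19.5, 27.1, 51.9 and 5.77 CPM (log2 fold change -2.74 ± 0.75, SE, adjusted p = 0.0147). These 2 genes fell with overlap, naive old replicate 4 being the lowest naive library in each, and for Atp6v0d2 the value ran from -3.57 to -2.17 with single libraries left out and was not called in a fit of these groups alone (adjusted p = 0.174). Laptm5 (-0.59), Ctsl (-0.56), Tpp1 (-0.39), Arsb (-0.69), Ids (-0.51), Ppt1, the palmitoyl-protein thioesterase (-0.40), and Lamp1 (-0.48) fell, and Tfeb, Tfe3 and Mitf were at -0.07 (adjusted p = 0.697), -0.10 (adjusted p = 0.443) and 0.21 (adjusted p = 0.224). The groups also overlapped in Ctsc, Ctsl, Arsb, Ppt1 and Lamp1, and the exons of Ppt1 overlap Cap1 on the other strand.

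The old series is thinly replicated at day 35. Its count of 15 was 7, 24 and 4 without day 35 old replicates 1, 2 and 3, was 8 without each of naive old replicates 1, 2 and 3, and 0 in a fit of these 2 groups alone, which called 1.45% of all genes. Of the 109 other pathway genes 5 rose and 20 fell, led by Cd164 (-0.81), Smpdl3b (-1.10), Slc36a1 (0.54) and the calcium channel gene Tpcn2 (0.91). Of 8 astrocyte markers 6 were higher at day 35, as were 2 of 6 tested oligodendrocyte and 1 of 5 erythroid markers. Lower at day 35 were 6 of 10 border macrophage, 5 of 12 microglia, 1 of 6 tested T and NK cell and 1 of 3 tested B and plasma cell markers, and the part of these cells in the result was not tested. The difference between old and WT in the change from naive to day 35 was called for no member and for 0.0432% of all genes (0.0216% positive, 0.0216% negative). At an unadjusted p under 0.05 there were 5 members, all more negative in old mice, and DESeq2 called none.

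The 46 members with a promoter window were split by whether a window holds the core CACGTG and set side by side. Members without a matched window, among them Ctsb, Atp6v0d2, Galns and Atp6v1h, are in neither set. In naive old over naive WT, 5 of 14 genes with the core rose, with a median log2 fold change of 0.43, and 7 of 32 without it, with a median of 0.25. In day 21 KO over day 21 WT, 2 of 14 genes with the core fell and none rose (median -0.32), and 7 of 32 without it fell and 1 rose (median -0.09). The order was the other way in naive KO over naive WT, with none called and medians of 0.04 with the core and 0.09 without it. In KO day 35 over KO naive, 3 of 14 genes with the core rose and none fell (median 0.13). Of the 32 without it, 5 rose and 5 fell (median 0.01). The 4 genes with printed promoters were picked by lowest adjusted p in the pairwise comparisons, so that they show calls follows from the choice. Cln3, the other gene with TCACGTGA, was called in no pairwise comparison (lowest edgeR adjusted p = 0.0511). Of the printed 4, Gla and Ctsd rose in naive old microglia. Gla and Mcoln1 rose in WT at day 21 and in KO at both days against naive. Mcoln1 also rose at day 35 in WT and in old mice. Ctsd fell in KO at day 21, against day 21 WT (-0.49) and against naive KO (-0.46), and was higher at day 35 than at day 21 in KO (0.62). Ctsa fell in KO at day 21 against naive (-0.39) and was higher at day 35 than at day 21 (0.49, log2 fold changes). These are descriptions of short lists, and the difference between genes with and without the string was not tested.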

How the data were processed

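RNA of sorted microglia was sequenced after library preparation with a SMARTer Stranded Total RNA-Seq Pico kit, per the labels. Reads were aligned with STAR to GRCm38 after CASAVA and bcl2fastq, per the submitters' processing notes, while for tool versions, counter and strand setting the sources used here give nothing. The authors deposited whole-number counts per Ensembl gene for 46078 genes. Per the file headers, an EAE score and a plate well were deposited for each library beside those counts. The table has 32 count columns, of which 2 were not used. The other 30 carry no sample titles and were tied to samples by inference, since the well number of the deposited plate location equals the last digits of the title, and 30 of 30 then matched the group in the title. Symbols came from GENCODE M21 for 45143 genes, and 935 genes without one held 0.0552% of the counts.

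A filter on low counts (filterByExpr, at least 10 counts a library and 15 in total) kept 13880 genes and all 53 members. Counts were scaled by TMM and fitted with edgeR 4.0.16 (quasi-likelihood, robust) in R 4.3.3 with limma 3.58.1, in a model of 8 groups with 22 residual degrees of freedom. The 12 pairwise and 4 interaction contrasts were adjusted by Benjamini-Hochberg over all genes, and a call is an adjusted p under 0.05. The code was tested on simulated data. CPM levels use TMM-scaled library sizes, and levels between genes are per kb of merged exons. Members and lists were chosen with earlier results of these data known. In each comparison all called members were named, up to 25 by adjusted p, the first 6 with values in every library, together with Tfeb, Tfe3 and Mitf, the highest and lowest member of each role, and up to 4 other pathway genes. Alternatives were DESeq2 size factors, the DESeq2 1.42.0 test, no filter, the compared groups alone, a block on the i5 index, moving day 35 WT replicate 3 to KO, and leaving out single libraries. The libraries carry no shared replicate numbers, and the 4 i5 indices did not pair them. Intervals cover counting error only.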

Additional observations from a re-analysis of the deposited data

Results flagged for a closer look

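Among members whose library values are printed, single libraries lay far from the other 3 of their group in 9 cases. Chance alone gives about 1 in 20 groups, and 10 groups, 7.58% of those tested with member share included, were picked out by Dixon's ratio of gap to range at its 95% critical value. In naive WT replicate 3, Ctsf was at 153.6 CPM (others 191 to 195), Cd63 at 72.8 CPM (others 47.1 to 49.1) and Atp6v0d2 at 2.69 CPM (others 0.143 to 0.294). This library also had the highest neutrophil marker sum of its group, 16917 CPM. In naive WT replicate 2, Cd68 was at 694 CPM (others 518 to 547), and in naive old replicate 4, Gm2a was at 258 CPM (others 326.96 to 339). In day 35 KO replicate 4, Smpd1 was at 26.2 CPM (others 40.4 to 41.7), Lipa at 81.7 CPM (others 120.4 to 125.5) and Atp6v1h at 40.8 CPM (others 35.6 to 35.8). That library had a neutrophil marker sum of 3862 CPM and the lowest microglia marker sum of its group, 14626 CPM. In day 35 KO replicate 3, Cd63 was at 141 CPM (others 91.0 to 93.3). The share of counts on the 53 members was 3.45% in day 21 KO replicate 2 (others 3.34% to 3.35%).

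The change over EAE differed between KO and WT by the interaction test for several members. From naive to day 21 the KO change minus the WT change (log2) was 0.48 for Ctsc, 0.65 for Atp6v1h, -0.92 for Ctsf, -1.11 for Arsb, -0.93 for Smpd1, -0.63 for Npc1 and -0.51 for Tfe3. From naive to day 35 it was 1.26 for Glb1. From day 21 to day 35 it was 1.00 for Glb1, 1.08 for Cd63, -0.48 for Ctsc and -0.59 for Atp6v1h. The part of the cell type markers that moved with these contrasts was not tested.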

How the results depend on the processing

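Counts of called members are compared with the fit of all 8 groups, and the cause of each shift was not tested. The share of all genes called is given for the fits of the compared groups alone. For the other alternatives that share is not given, so a shift in the members cannot be told from one shared by all genes. Without a filter on low counts 7 members were called in day 21 KO over WT, 1 in day 35 KO over WT, 0 in day 35 old over WT, 9 in old day 35 over naive and 1 in the genotype by day 21 to day 35 interaction. The DESeq2 test called 1 in naive KO over WT, 6 in day 35 KO over WT, 11 in the genotype by day 21 interaction and 3 in the genotype by day 35 interaction. In fits of the compared groups alone 31 were called in day 21 KO over WT (35.2% of all genes), 18 in WT day 21 over naive (27.7%), 0 in day 35 old over WT (0%), 0 in old day 35 over naive (1.45%), and 22, 2 and 8 in the genotype by day 21, day 35 and day 21 to day 35 interactions (19.1%, 0.916% and 8.28% of all genes). With day 35 WT replicate 3 moved to KO the last of these was 8.

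With single libraries left out, counts ran from 6 to 17 in day 21 KO over WT, 0 to 4 in day 35 KO over WT, 4 to 12 in WT day 21 over naive, 10 to 20 in KO day 35 over day 21, 7 to 21 in naive old over WT, 0 to 6 in day 35 old over WT and 4 to 24 in old day 35 over naive. They ran from 3 to 14, 0 to 4 and 0 to 7 in the genotype by day 21, day 35 and day 21 to day 35 interactions. Leaving out day 35 old replicate 1 from contrasts without its group was chosen after seeing the data. Of 2348 recomputed fold changes of named members 1943 kept direction and call, 373 kept direction and lost the call, 10 gained one and 22 turned direction, the last all regulators near 0 and not called. Tfeb in WT day 35 over naive, -0.01, was at 0.01 with DESeq2 size factors and the DESeq2 test, 0.02 without a filter, 0.00 with replicate 3 moved, and -0.06 to 0.05 with libraries left out. Left-out libraries gave Tfeb -0.05 to 0.07 and Mitf -0.02 to 0.18 in naive KO over WT, Mitf -0.05 to 0.09 in day 21 KO over WT, Tfe3 -0.02 to 0.07 in naive old over WT, Tfeb -0.17 to 0.01 in old day 35 over naive and Mitf -0.12 to 0.03 in WT day 35 over day 21.

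The groups share no replicate numbers, and the i5 index was tried as a replicate block. Of 98 same-index pairs 16 had a correlation of deviations over 0.1 (median -0.007, range -0.511 to 0.334), and 8 of 30 libraries matched their own index best, so the index does not pair the samples. The block gave 1 called member in naive KO over WT and 2 in day 35 old over WT, and Mitf at -0.01 in day 21 KO over WT. Under it Ctsd, Galns and Scarb2 in day 21 KO over WT (adjusted p = 0.0630, 0.0695 and 0.0714), Tfe3 in day 35 KO over WT (0.0572), Gaa in WT day 21 over naive (0.0515), Galns and Tfe3 in day 35 old over WT (0.0670 and 0.0717), Neu1 in old day 35 over naive (0.0610), Ctsf in the genotype by day 21 interaction (0.0631) and Atp6v1h in that from day 21 to day 35 (0.0564) were not called. Mitf was called higher at day 21 over naive in WT (0.0372) and in KO (0.0366). Atp6v0d2, with 5 counts over day 21 WT and 8 over day 35 WT, is limited by depth where it is low.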
